A study of Mus musculus with 14 samples.

Results

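The genes described here encode the protein part of the mitochondrial ribosome, and were followed through early mouse embryos made by fertilisation or by nuclear transfer. Members were all rows of the deposited expression table whose symbol is Mrpl or Mrps followed by a number. The rule found 76 of 22497 gene symbols, 47 Mrpl and 29 Mrps genes with 1 row each, spread over 17 chromosomes. RNA-seq was run on 14 libraries in 7 groups of 2: cumulus cells, which surround the oocyte and served as nuclear donors, 1-cell and 2-cell embryos from in vitro fertilisation (IVF), 1-cell and 2-cell embryos from somatic cell nuclear transfer (SCNT), and SCNT 2-cell embryos overexpressing either Kdm4d or a mutant Kdm4d. Kdm4d encodes a demethylase of lysine 9 of histone H3; the labels say neither which mutation was used nor how the proteins were supplied. By its title, the series looked for an epigenetic obstacle to reprogramming after SCNT. In the strain labels, donor cells are (C57BL/6J x CAST/EiJ) F1, all SCNT embryos with or without Kdm4d combine such a donor nucleus with a B6D2F1 recipient oocyte, and IVF embryos come from a C57BL/6J oocyte and CAST/EiJ sperm. Strain and kind of embryo therefore cannot be told apart, and the growth protocol names adult BDF1 females as the source of cumulus cells in place of the F1. Each library pooled 32 or 31 IVF 1-cell, 36 SCNT 1-cell, 25 IVF 2-cell, 40 SCNT 2-cell, or 25 Kdm4d or mutant Kdm4d embryos, or about 1000 cumulus cells.

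Mitochondria keep their own ribosome to translate the few proteins encoded in mitochondrial DNA, all of them parts of the respiratory chain and the ATP synthase. Its RNAs come from mitochondrial DNA, but every one of its proteins is encoded in the nucleus, made in the cytosol and imported. Part of these proteins have counterparts in bacterial ribosomes and the rest were added in mitochondria; oocytes hand the embryo a large store of mitochondria, and those divide little during the first cleavages. By name and textbook assignment, 30 members are large-subunit proteins with a bacterial counterpart, 19 large-subunit proteins specific to mitochondria, 16 small-subunit proteins with a bacterial counterpart and 10 small-subunit proteins specific to mitochondria. Mrps18a and Mrps30 were counted with the large subunit, where their proteins sit despite the symbol. Mrps36 was kept apart, since its protein is now assigned to the oxoglutarate dehydrogenase complex.

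Promoters of 67 of the 76 members were found by symbol in the RefSeq promoter table (build GRCm38.p6), as windows of 300 bases from 250 before to 50 after the annotated start. Letters known from promoters of genes for mitochondrial proteins were searched on both strands. CCGGAAG, a core bound by GABP and other ETS factors, stood in 34.3% of member windows, against 16.9% of those of the tested genes and 9.12% of all promoters. AAGATGGC, a core of YY1 sites, stood in 17.9% of member windows, 4.53% of tested genes and 2.88% of all promoters. The core of the NRF1 site stood in 17.9%, 9.89% and 4.78%. The E-box CACGTG was in 7.46% of member windows and 9.98% of tested genes, and TATAAA in 5.97% and 8.17%. Such matches describe letters and not occupied sites; none of these motifs contains another.

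Stretches of 8 promoters are shown: 7 of members with large differences below, some with and some without these motifs, and 1 short gap that serves 2 members. Each is the part of the window before the start that no annotated exon overlaps, written 5′ to 3′ on the strand of the gene, with motif matches in capitals. They lie at chr8:71464676-71464925 (Mrpl34, plus strand), chr19:45006443-45006557 (Mrpl43, minus strand), chr17:46110754-46110985 (Mrps18a, plus strand, ending 18 bases before the start), chr13:99344706-99344785 (Mrps27, plus strand), chr8:22411310-22411339 (Mrps31, plus strand), chr11:59202386-59202485 (Mrpl55, plus strand), chr1:37890412-37890476 (Mrpl30, plus strand) and chr7:78783090-78783130 (between Mrpl46 and Mrps11, plus strand), all on GRCm38.p6.
Mrpl34: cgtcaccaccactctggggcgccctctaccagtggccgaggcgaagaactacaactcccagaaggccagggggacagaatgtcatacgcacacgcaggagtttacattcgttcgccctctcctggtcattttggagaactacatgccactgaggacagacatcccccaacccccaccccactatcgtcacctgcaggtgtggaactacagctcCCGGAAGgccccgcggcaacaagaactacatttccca
Mrpl43: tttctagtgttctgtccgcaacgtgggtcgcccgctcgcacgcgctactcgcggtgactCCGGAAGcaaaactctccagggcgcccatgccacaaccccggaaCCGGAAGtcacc
Mrps18a: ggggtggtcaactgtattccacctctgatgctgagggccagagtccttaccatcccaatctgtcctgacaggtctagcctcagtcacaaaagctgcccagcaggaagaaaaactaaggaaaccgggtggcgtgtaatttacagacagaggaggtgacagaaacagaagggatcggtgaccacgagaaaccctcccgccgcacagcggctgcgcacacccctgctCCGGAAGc
Mrps27: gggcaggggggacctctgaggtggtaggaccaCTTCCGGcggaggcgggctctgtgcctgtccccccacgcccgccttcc
Mrps31: gtctccgtttcctaccggaatccaaaagga
Mrpl55: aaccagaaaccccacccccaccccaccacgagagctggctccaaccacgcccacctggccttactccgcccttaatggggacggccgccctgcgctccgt
Mrpl30: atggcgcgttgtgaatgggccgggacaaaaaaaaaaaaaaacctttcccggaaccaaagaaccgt
Mrpl46-Mrps11: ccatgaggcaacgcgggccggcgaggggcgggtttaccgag
The ETS core stands in 4 of these stretches, in that of Mrpl43 at 2 places and in that of Mrps27 in the reverse orientation CTTCCGG. The stretches of Mrps31, Mrpl55 and Mrpl30 hold none of the motifs searched. The gap of 41 bases between Mrpl46 and Mrps11, which are read away from each other, holds none either. This is about the printed stretches only. The whole windows counted above also hold the NRF1 core for Mrpl30, the YY1 core for Mrps11, Mrps18a and Mrps27, and TATAAA for Mrpl46.

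Levels are FPKM, fragments per length of transcript and per number of mapped fragments, so they can be compared between genes. Differences are on the log2(FPKM + 1) scale, tested with limma over the 13454 genes that reached 1 FPKM in 2 or more libraries, and called at a Benjamini-Hochberg adjusted p under 0.05 over all of them. This scale understates the change of low genes. Of the members, 75 entered the tests and 71 reached 5 FPKM in at least 2 libraries; Mrpl23 was left out, at no more than 0.329 FPKM in any library. Nothing in the labels says that the 2 libraries of a group came from separate experiments, so p-values measure the spread between these libraries, and in pooled embryos fewer cells and less RNA per cell cannot be told apart. Relative depth, read from the steps between low values, ran from 0.416 to 0.509 of the deepest library in the Kdm4d and mutant libraries, 0.584 and 0.588 in donor cells and at least 0.776 in the rest. The robust SD of members between replicates was 0.136 and 0.135 in 1-cell embryos after IVF and SCNT. In 2-cell embryos it was 0.162 after IVF and 0.228 after SCNT, against 0.323 with Kdm4d and 0.318 with the mutant, on the log2 scale. The fit uses 1 variance per gene for all groups. For these last 2 groups, counts over all members are therefore also given from a fit with 1 weight per group. That fit was chosen after seeing the data. Other results with these groups come from the equal-variance fit alone, unless a value with group weights stands beside them. On data simulated with each group's own spread, the equal-variance fit called many unchanged genes between Kdm4d and mutant embryos and the weighted fit few, while the weighted fit missed more of the small changes. The equal-variance counts for that comparison may therefore be too high; the other comparisons with these groups were not simulated. Of 18 cumulus markers, 17 reached 1 FPKM in each donor library, and all 15 oocyte markers did in each embryo library. Summed markers of immune cells were at most 27.8 FPKM in any library, of endothelium 9.51, of sperm 12.8 and of red blood cells 2.63. The 3 oviduct epithelium markers, Ovgp1, Epcam and Krt18, summed to 1.41 to 4.13 FPKM in 1-cell embryos, 60.9 to 111.5 in 2-cell embryos and 39.1 and 22.4 in donor cells, and all 3 were called higher in both stage steps. Their part in the stage differences of members was not tested. The deposited table lists Kdm4d at 8879 and 2255 FPKM in the Kdm4d libraries, 723 and 283 in the mutant libraries, and at most 0.759 in any other.

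Members made up a larger part of the RNA in cumulus cells than in embryos. Their summed FPKM was 1.23% and 1.20% of the total over all symbols in donor cells. In 1-cell embryos it was 0.448% and 0.461% after IVF and 0.469% and 0.469% after SCNT, and in IVF 2-cell embryos 0.508% and 0.510%. It was 0.802% and 0.740% in SCNT 2-cell, 0.594% and 0.731% in mutant and 0.665% and 0.766% in Kdm4d embryos. Donor libraries were above all others, and IVF 2-cell libraries were below all 6 SCNT 2-cell libraries with or without Kdm4d. For cytosolic ribosomal proteins the order differed: 3.69% and 3.53% in donor cells, 0.136% to 0.171% in 1-cell embryos, 1.96% and 1.92% in IVF 2-cell, 1.38% and 1.20% in SCNT 2-cell, 0.785% and 1.17% in mutant and 1.69% and 2.05% in Kdm4d embryos.

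Single members differed by far more than their sum. The highest mean over the 14 libraries was that of Mrpl33, at 137.1 FPKM, followed by Mrpl18 at 111.6 and Mrpl53 at 86.3. Mrpl33 owed its place to donor cells, with 713 and 730 FPKM there and 18.9 to 72.8 in embryos, while Mrpl18 lay between 67.0 and 156 in every library. At the other end, Mrpl23 averaged 0.0926 FPKM, Mrps36 0.997 and Mrps34 1.36. Some values are uncertain, because over 30% of the 50-base stretches of the transcript also occur in transcripts of other genes: Mrpl53 (100%, all in Gm42688), Mrps25 (73.9%), Mrpl23 (65.9%), Mrps18b (63.6%), Mrps34 (52.3%), Mrpl19 (40.3%), Mrpl27 (40.1%), Mrpl24 (38.0%), Mrps36 (35.9%), Mrpl22 (33.3%), Mrps6 (31.9%) and Mrpl33 (30.2%). The rows of Mrpl41, Mrpl48, Mrpl49 and Mrps27 overlap those of Wdr85, Rab6a, Syvn1 and 6430562O15Rik, and no source used here says that strand was kept, so reads there cannot be told apart.

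**Figure D1:**
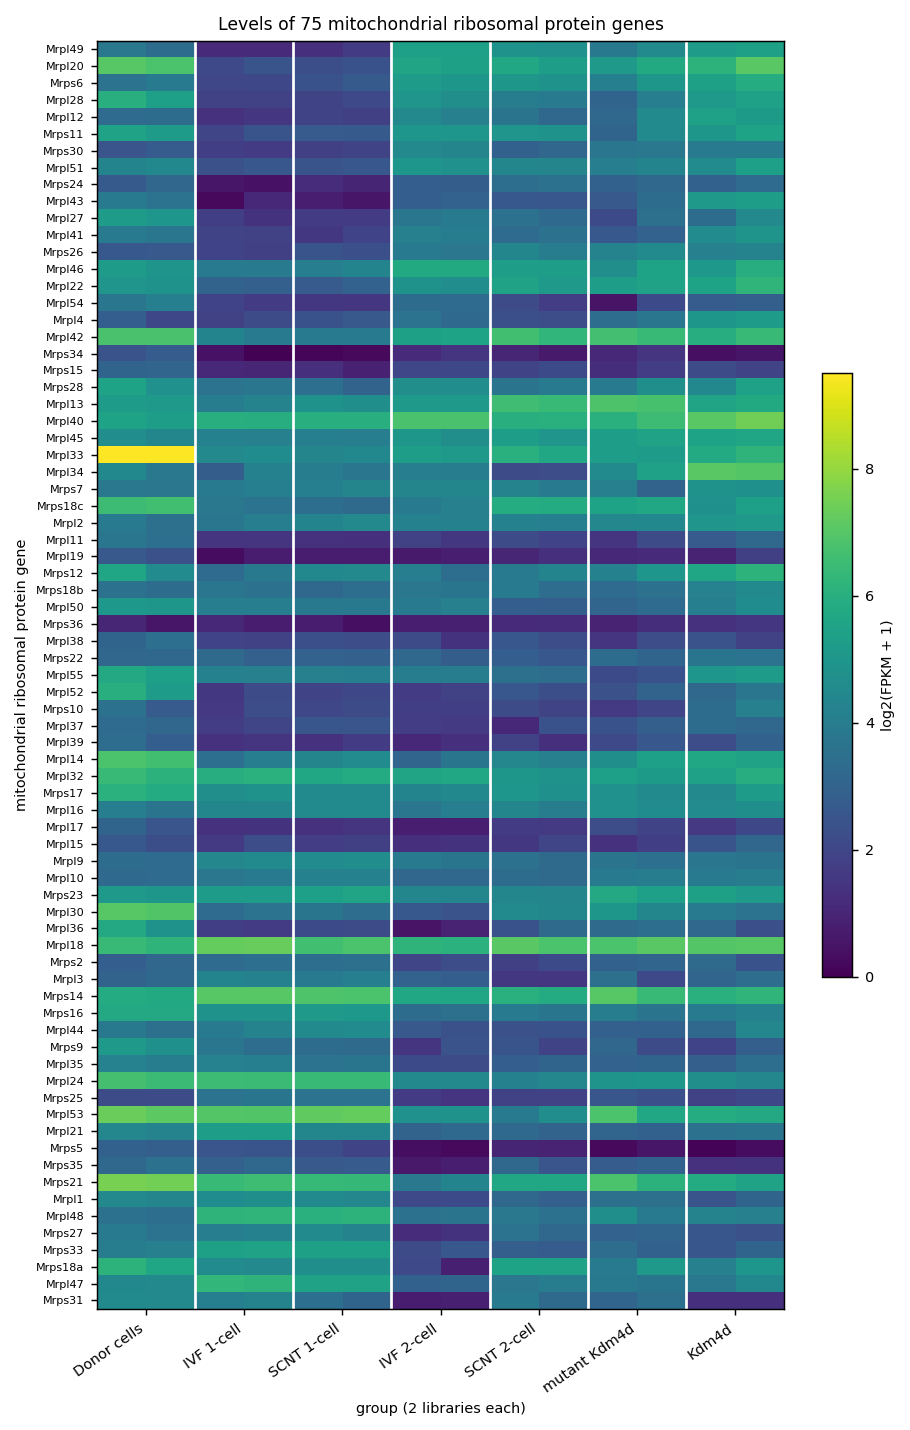
Level of each of the 75 tested members (rows) in each of the 14 libraries (columns, 2 per group), as log2(FPKM + 1), ordered by the IVF stage difference. Rows at the top are dark in 1-cell and bright in IVF 2-cell embryos and rows at the bottom the reverse; Mrps31, Mrps35 and Mrps18a are dark in IVF 2-cell and brighter in SCNT 2-cell embryos.

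Donor cumulus cells were first set against IVF 1-cell embryos. Higher in donor cells were 42 of 75 members and lower 12, where 42.4% of all tested genes were higher and 35.5% lower; the median difference was 1.03 for members and 0.13 for all genes. Mrpl33, the counterpart of a small bacterial large-subunit protein, had 21.4 and 23.7 FPKM in IVF 1-cell embryos and 713 and 730 in donor cells, 4.94 ± 0.167 (SE) apart (limma, adjusted p = 9.963e-11). Mrpl20, whose bacterial counterpart is needed early in large-subunit assembly, had 3.30 and 4.54 against 129 and 112 (4.63, adjusted p = 1.785e-08, limma). Mrpl28 had 2.65 and 2.57 against 62.3 and 40.0 (3.82). Lower in donor cells were Mrpl48, a large-subunit protein specific to mitochondria, at 10.7 and 9.91 against 72.7 and 73.7 FPKM (fell by 2.71 on the log2 scale), Mrpl47 at 20.8 and 21.0 against 77.4 and 72.3, and Mrps25 at 3.46 and 3.49 against 11.3 and 11.8. For these 6 members no donor value overlapped an IVF 1-cell value.

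Between the 1-cell and the 2-cell stage of IVF embryos, when the embryo's own genome is switched on and maternal RNA is cleared, the members split. Of 75, 25 rose and 29 fell, against 30.4% and 37.2% of all tested genes, so the shares of 33.3% and 38.7% lay near the background. The median of the absolute log2 difference was 1.33 for members and 0.928 for all genes. Since the scale understates the change of low genes, these medians also depend on expression level. Whether members changed more than genes of similar level was not tested. Cytosolic ribosomal proteins did not split, with 67 of 75 higher and 2 lower.

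Among large-subunit members 18 of 48 rose and 17 fell. Mrpl49, a protein specific to mitochondria, had 1.24 and 1.25 FPKM at the 1-cell stage and 40.5 and 40.8 at the 2-cell stage, 40.7 ± 0.183 against 1.24 ± 0.00706 (SD, n = 2), a 32.7-fold rise (4.21 on the log2 scale, limma adjusted p = 1.708e-08). Mrpl20 went from 3.30 and 4.54 to 46.2 and 41.3 (3.19), Mrpl28 from 2.65 and 2.57 to 29.8 and 25.3 (2.98) and Mrpl12, which forms the flexible stalk that recruits translation factors, from 1.53 and 1.83 to 21.2 and 16.9 (2.90). In none of these did the stages overlap. Mrps30 (2.70), Mrpl51 (2.43) and Mrpl43 (2.26) also rose. In the other direction Mrpl47, a counterpart of a bacterial protein at the mouth of the exit tunnel, dropped from 77.4 and 72.3 to 6.67 and 7.41 FPKM, a log2 difference of -3.24 ± 0.185 (SE, limma adjusted p = 2.79e-08). Mrps18a fell from 23.3 and 21.0 to 3.25 and 0.806 (-3.06), Mrpl48 from 72.7 and 73.7 to 10.7 and 11.6 (-2.61), Mrpl1, of the stalk beside the exit of tRNA, from 23.5 and 25.8 to 3.27 and 3.45 (-2.55), and Mrpl21 from 38.3 and 39.7 to 7.24 and 8.52 (-2.17).

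Among small-subunit members 7 of 26 rose and 12 fell. Mrps6 rose from 3.09 and 3.15 to 36.4 and 31.6 FPKM (3.08), Mrps11 from 2.98 and 4.57 to 30.8 and 30.6 (2.75) and Mrps24 from 0.503 and 0.369 to 6.25 and 6.03 (2.32). The largest fall of any member in this step was that of Mrps31, a small-subunit protein specific to mitochondria, from 16.2 and 17.9 FPKM to 0.709 and 0.800 (log2 difference -3.36 ± 0.217 (SE), limma adjusted p = 7.071e-08). Mrps33 fell from 41.4 and 43.4 to 3.68 and 4.98 (-3.04), Mrps27, a pentatricopeptide repeat protein, from 15.8 and 17.0 to 1.30 and 1.62 (-2.82), Mrps21 from 86.2 and 93.3 to 12.9 and 18.4 (-2.46), and Mrps35 from 6.60 and 8.11 to 0.574 and 0.751 (-2.33). Of the 10 small-subunit proteins specific to mitochondria, 6 fell and 2 rose. The 19 large-subunit proteins specific to mitochondria went the other way, with 4 that fell and 10 that rose. Of all tested genes 37.2% fell and 30.4% rose. Whether these classes differ was not tested.

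The same stage step after SCNT gave 25 members higher and 25 lower, where 35.5% of tested genes were higher and 31.5% lower. It shares no library with the IVF step. The 21 members that rose in both make up 84% of each list of 25, and the 21 that fell in both make up 72.4% of the IVF list and 84% of the SCNT list. Over all tested genes the shares were 75.7% and 64.8% for rises and 73.1% and 86.2% for falls. Across the 75 members the differences of the steps had a Pearson correlation of 0.79, and across all genes 0.83, as a description over genes that come from the same libraries.

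In SCNT embryos Mrpl49 went from 1.48 and 2.25 FPKM to 28.4 and 27.1 (3.34), and Mrpl20 from 3.84 and 4.32 to 51.2 and 38.9 (3.17, limma adjusted p = 1.904e-06). Mrpl42 (2.52), Mrps18c (2.50), Mrpl22 (2.46), Mrps6 (2.39), Mrps24 (2.39), Mrps11 (2.18), Mrpl28 (1.95) and Mrpl43 (1.92) followed. Falls were led by Mrpl53, whose sequence is shared in full with another gene, from 147 and 152 to 14.1 and 24.5 (-2.93), Mrps33 from 40.9 and 41.2 to 6.40 and 5.81 (-2.57), Mrpl3, which reaches toward the catalytic centre, from 14.2 and 16.2 to 1.94 and 1.83 (-2.49), and Mrpl48 from 64.5 and 70.6 to 13.1 and 11.1 (-2.39). Mrpl44 (-2.19), Mrpl24 (-2.14), Mrps25 (-1.76), Mrpl34 (-1.65), Mrpl47 (-1.61) and Mrps2 (-1.49) also fell. Mrpl30 was the single member called in opposite directions, from 9.04 and 11.3 to 5.13 and 4.46 FPKM after IVF and from 12.0 and 9.49 to 22.5 and 19.6 after SCNT. Neither step called 14 members, among them Mrpl2, Mrpl15, Mrps7 and Mrps22.

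**Figure D2:**
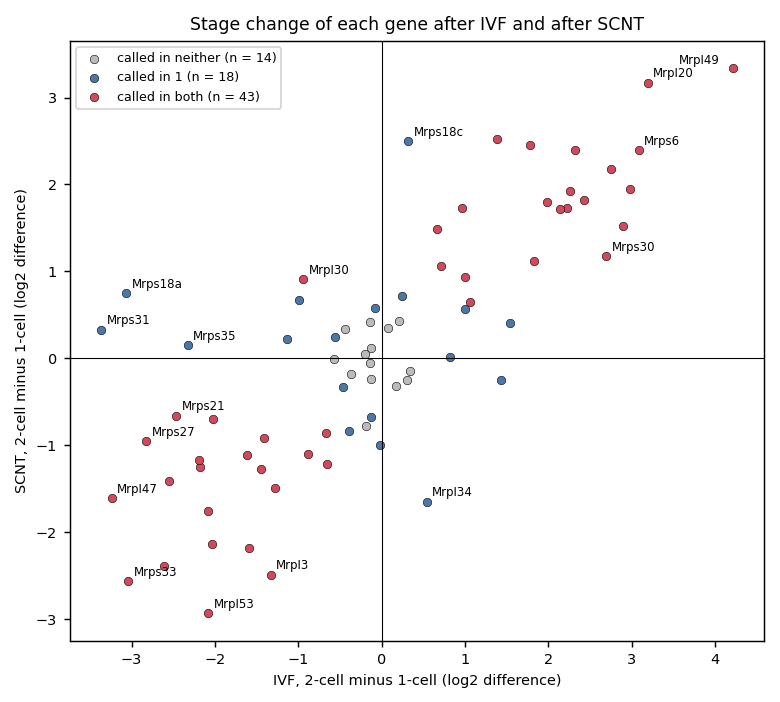
Log2 difference of each tested member from the 1-cell to the 2-cell stage, after IVF on the x axis and after SCNT on the y axis, coloured by how many of the 2 comparisons called it. Mrpl49 and Mrpl20 lie at the upper right with values above 3 in both, Mrpl47 and Mrps33 at the lower left, and Mrps31, Mrps18a and Mrps35 to the left, between 0.15 and 0.75 on the SCNT axis.

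Whether the stage change itself differed was tested as an interaction. It was higher in SCNT for 17 of 75 members and lower for 6, where 16.5% and 12.6% of tested genes were called; the median was 0.09 for members and 0.17 for all genes. With group weights the split was 21 higher and 18 lower (29.3% and 19.7% of all genes). With median-of-ratios scaling, which moved the median of all genes to 0.015, it was 15 and 13, with the share of all genes not given here. Mrps31, which fell after IVF, had 9.98 and 7.28 FPKM in SCNT 1-cell and 13.7 and 8.72 in SCNT 2-cell embryos, a difference of changes of 3.69 ± 0.308 (SE, limma adjusted p = 2.313e-05). Mrps18a (3.81 ± 0.605) and Mrps35 (2.48 ± 0.317) fell after IVF and were not called after SCNT. At the 1-cell stage Mrps18a had 25.7 and 26.0 FPKM in SCNT and 23.3 and 21.0 in IVF embryos. Mrps35 had 5.34 and 5.57 in SCNT and 6.60 and 8.11 in IVF 1-cell embryos; neither gene overlapped there and neither was called. Mrpl34 had the most negative interaction, -2.19 ± 0.551 (adjusted p = 0.01168, limma), from 14.9 and 12.5 FPKM at the 1-cell to 3.57 and 3.77 at the 2-cell stage of SCNT. In IVF embryos it had 5.93 and 17.3, then 15.8 and 15.0.

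At the 1-cell stage few members were called between SCNT and IVF embryos. In limma with equal variance only Mrpl13 was called higher, at 28.2 and 25.5 against 15.0 and 18.1 FPKM (0.67 ± 0.140, limma adjusted p = 0.03173), and only Mrpl21 lower, at 19.7 and 19.8 against 38.3 and 39.7 (-0.94 ± 0.147, adjusted p = 0.007145, limma). Of all tested genes 1.34% were higher and 0.974% lower. Leaving out any 1 of the 4 libraries, of SCNT replicate 1 or 2 or of IVF replicate 1 or 2, left 0 members called in either direction in limma, with 3 to 7 higher and 4 or 5 lower at an unadjusted p under 0.05, while the fit with group weights, in which these 4 libraries count most, called 13 higher and 8 lower with 18.9% and 11.4% of all genes. Summed cumulus markers were 66.8 and 88.2 FPKM in SCNT and 9.99 and 10.5 in IVF 1-cell embryos, against 26918 and 20542 in donor cells; their part in these values was not tested.

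At the 2-cell stage, SCNT embryos had 20 members higher and 13 lower than IVF embryos, with 30.3% and 16.6% of tested genes called. The shares of members, 26.7% and 17.3%, lay near the background, and the medians were 0.26 for members and 0.23 for all genes. The general shift depended on scaling: with median-of-ratios scaling the median of all genes was -0.003 and 11 members were higher and 22 lower. With quantile normalization 22 were higher and 11 lower. Shares of all genes under these scalings are not given here, so these counts do not set members apart from the background. Leaving out IVF replicate 1, IVF replicate 2 or SCNT replicate 2 left 7 members lower in each case. What follows is therefore about single members; each one named as called kept its direction under both scalings, but Mrpl42 was not called with median-of-ratios scaling (0.55), nor Mrpl40 (-0.30) and Mrpl32 (-0.34) with quantile normalization.

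Of 26 small-subunit members 7 were higher, a share near that of all genes (30.3%), and 0 lower in limma, 1 at an unadjusted p under 0.05 (9 and 1 with quantile normalization, 6 and 3 with median-of-ratios scaling, 11 and 1 with group weights, where 36.2% and 19.7% of all genes were called). The large subunit had 13 of 48 higher and 13 lower. Mrps31 had 13.7 and 8.72 FPKM in SCNT against 0.709 and 0.800 in IVF embryos, 14.9-fold higher (2.77 ± 0.217 (SE), limma adjusted p = 2.988e-06). Mrps35 had 8.01 and 4.70 against 0.574 and 0.751 (2.11), and Mrps27 11.3 and 8.36 against 1.30 and 1.62 (2.13). For these 3, SCNT 2-cell embryos lay above IVF 2-cell embryos without overlap. Mrps18c had 58.0 and 56.1 against 14.7 and 16.5 (1.81), and Mrps21 51.4 and 49.6 against 12.9 and 18.4 (1.65).

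The largest difference of any member in this comparison belonged to Mrps18a (mm9 chr17:46247953-46265857), with 44.5 and 43.8 FPKM in SCNT and 3.25 and 0.806 in IVF 2-cell embryos, 44.1 ± 0.512 against 2.03 ± 1.73 (SD, n = 2), 21.8-fold (4.03 ± 0.428 (SE), limma adjusted p = 2.414e-05). Mammals carry 3 Mrps18 genes that descend from 1 bacterial small-subunit protein. Mrps18c was higher in SCNT 2-cell embryos, as given above, whereas Mrps18b, with 14.6 and 9.47 FPKM against 12.7 and 12.1, was not called (-0.07, adjusted p = 0.8065, limma). Other large-subunit members higher in SCNT were Mrpl36, at 4.27 and 8.89 against 0.405 and 0.928 (2.13), Mrpl30 at 22.5 and 19.6 against 5.13 and 4.46 (1.93), Mrpl13 at 96.3 and 87.0 against 33.2 and 33.3 (1.43) and Mrpl42 at 97.7 and 76.6 against 41.7 and 45.4 (0.98).

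All 13 members called lower in SCNT 2-cell embryos with the deposited scaling belong to the large subunit as defined above. Mrpl34 (mm9 chr8:73988825-73989652), a small protein with a bacterial counterpart, had 3.57 and 3.77 FPKM against 15.8 and 15.0 in IVF embryos (-1.81 ± 0.390 (SE), limma adjusted p = 0.00264). Mrpl54 (-1.39), Mrpl3 (-1.39), Mrps30 (-1.34), Mrpl50 (-1.19), Mrpl4 (-1.16), Mrpl12 (-0.91), Mrpl28 (-0.86), Mrpl40 (-0.76) and Mrpl32 (-0.65) were also lower. For Mrps30 the libraries read 6.77 and 7.89 against 21.2 and 18.9 FPKM, for Mrpl50 6.19 and 6.33 against 14.5 and 16.8, for Mrpl4 4.01 and 3.72 against 11.3 and 8.64, and for Mrpl40 61.7 and 65.2 against 108 and 109. In each of these 4 the SCNT libraries lay below both IVF libraries. Summed markers of the 2-cell stage were 653 and 617 FPKM in SCNT and 3122 and 2925 in IVF embryos, and cytosolic ribosomal proteins had 1 gene higher and 44 lower of 75; their part in the member differences was not tested.

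**Figure D3:**
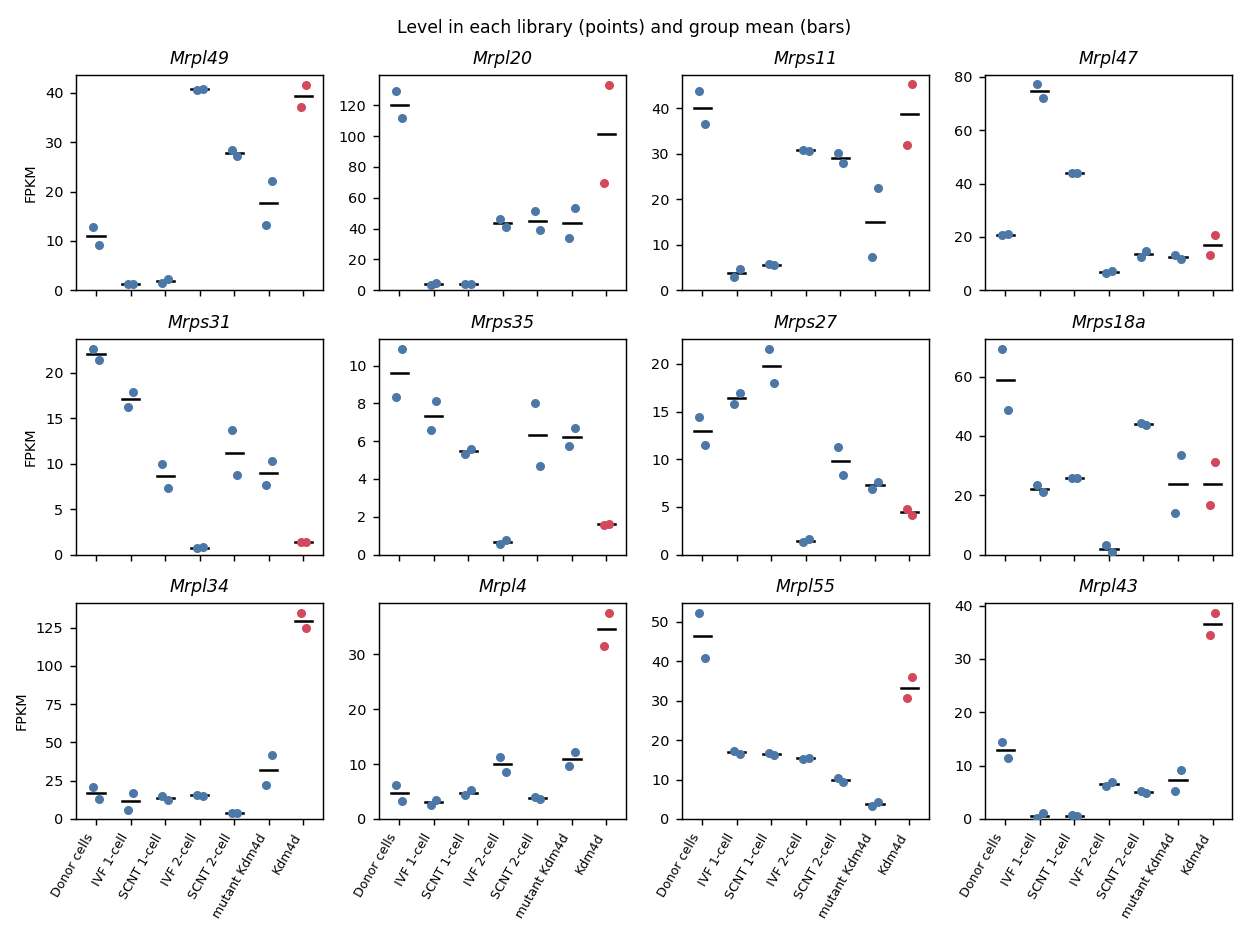
FPKM of 12 members in each library (points; Kdm4d libraries in red) with the group mean (bars), each panel on its own axis from 0. Mrps31 and Mrps35 are near 0 in IVF 2-cell embryos, high in SCNT 2-cell and mutant embryos and low again with Kdm4d; Mrpl34, Mrpl4 and Mrpl43 are highest with Kdm4d.

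Many members had a higher FPKM in Kdm4d than in plain SCNT 2-cell embryos. As a part of the library their sum overlapped, at 0.665% and 0.766% with Kdm4d and 0.802% and 0.740% without. FPKM summed over all rows were 318334 and 330690 with Kdm4d and 210260 and 208781 without. The part of this difference in the counts was not tested. Of 75 members, 32 were higher and 7 lower, against 21.0% and 18.5% of all tested genes. Medians were 0.48 for members and -0.02 for all genes. With group weights 25 were higher and 5 lower (16.8% and 11.9% of all genes), and with quantile normalization 26 and 13 (17.0% and 19.3%). Cytosolic ribosomal proteins had 55 of 75 higher and 0 lower in limma (43 and 0 with group weights), a larger share than members. In the equal-variance fit the large subunit had 25 of 48 higher and 2 lower, the small subunit 7 of 26 higher and 5 lower. Mrpl34 had 135 and 125 FPKM with Kdm4d and 3.57 and 3.77 without, 129.6 ± 7.03 against 3.67 ± 0.137 (SD, n = 2), 35.3-fold higher (4.81 ± 0.390 (SE), limma adjusted p = 8.325e-06, with group weights 0.0006758). Mrpl4 had 31.6 and 37.6 against 4.01 and 3.72 (2.87) and Mrpl43 34.5 and 38.5 against 5.20 and 4.92 (2.63). These 3 were also higher with Kdm4d than in any other group of the series, with no library overlapping. Falls were led by small-subunit members: Mrps31, at 1.44 and 1.43 FPKM against 13.7 and 8.72 (-2.30, limma adjusted p = 2.065e-05, with group weights 0.0002576), Mrps35 at 1.55 and 1.64 against 8.01 and 4.70 (-1.47) and Mrps27 at 4.84 and 4.16 against 11.3 and 8.36 (-0.97).

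Against the same SCNT 2-cell embryos, mutant Kdm4d embryos had 12 members higher and 3 lower, with 11.3% and 6.41% of all tested genes called. These counts rested on single libraries and on the spread assumed: with group weights they were 4 and 1 (3.31% and 0.877% of all genes), without SCNT 2-cell replicate 1 also 4 and 1, and without mutant replicate 2 they were 15 and 12. With quantile normalization the split was 10 and 7. Shares of all genes are not given for the quantile and leave-out fits, so those counts are not compared with the background. Mrpl34 had 22.4 and 42.1 FPKM against 3.57 and 3.77 (2.77, limma adjusted p = 0.001699, with group weights 0.08327), Mrpl53 111 and 50.6 against 14.1 and 24.5 (1.95, adjusted p = 0.00271, limma, with group weights 0.009538) and Mrpl4 9.62 and 12.3 against 4.01 and 3.72 (1.29, limma adjusted p = 0.006934, with group weights 0.1068). Mrpl55 was lower, at 3.38 and 4.29 against 10.5 and 9.44 (-1.19, limma adjusted p = 0.001488, with group weights 0.01403). Mrpl41 (-0.62) and Mrpl33 (-0.60) were lower in the equal-variance fit and not called with group weights (limma adjusted p = 0.2703 and 0.1675).

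Set directly against the mutant, Kdm4d embryos had 27 members higher and 12 lower, against 21.4% and 22.5% of all genes. With group weights 11 were higher and 3 lower (10.8% and 5.91%), and in a limma fit to these 4 libraries alone 0 in either direction, with 22 higher and 5 lower at an unadjusted p under 0.05. Median-of-ratios scaling gave 31 and 8, with the share of all genes not given here. Of 75 cytosolic ribosomal proteins 54 were higher and 1 lower (31 and 1 with group weights). In the equal-variance fit, whose counts may be too high here, the large subunit had 20 of 48 higher and 4 lower. The small subunit had 7 of 26 higher and 8 lower in that fit. The weighted split by subunit is not given here. Mrpl55 had 30.7 and 35.9 FPKM against 3.38 and 4.29 in mutant embryos, 33.3 ± 3.71 against 3.84 ± 0.649 (SD, n = 2), 8.68-fold (2.83 ± 0.161 (SE), limma adjusted p = 2.405e-06, with group weights 0.0002499). Mrpl43 had 34.5 and 38.5 against 5.24 and 9.27 (2.23, limma adjusted p with group weights 0.02948), and Mrpl41 22.9 and 29.1 against 5.18 and 6.99 (1.93, 0.003939 likewise). Mrpl34, at 135 and 125 against 22.4 and 42.1 (2.04), had an adjusted p of 0.001598 in limma and of 0.1725 with group weights. Mrps10 (1.96), Mrpl28 (1.73), Mrpl4 (1.58), Mrpl54 (1.51), Mrps11 (1.48) and Mrpl12 (1.43) completed the largest rises; of these Mrps11 was not called with group weights (limma adjusted p = 0.05492).

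On the lower side Mrps31 had 1.44 and 1.43 FPKM against 7.70 and 10.3 in mutant embryos (-2.03 ± 0.217 (SE), limma adjusted p = 5.408e-05, with group weights 0.006337). Mrps35 had 1.55 and 1.64 against 5.76 and 6.68 (-1.47), and Mrpl13 46.6 and 53.5 against 114 and 107 (-1.13). These 3 also passed with group weights and had no overlap between libraries. The other 9 did not pass there, among them Mrpl30 (-0.94), Mrps21 (-0.81), Mrpl1 (-0.76), Mrps14 (-0.60), Mrps27 (-0.59), Mrps18c (-0.50) and Mrpl24 (-0.42), with limma adjusted p from 0.09133 for Mrpl1 to 0.259 for Mrps27.

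The differences between SCNT and IVF 2-cell embryos and between Kdm4d and mutant embryos come from separate libraries and were negatively related across members. Over the 75 members Pearson's r was -0.61 and Spearman's rho -0.60, and over all 13454 genes -0.69 and -0.63, given as a description across genes. Of the 20 members higher in SCNT, 8 were lower with Kdm4d (40.0% of that list and 66.7% of the 12 lower with Kdm4d): Mrpl1, Mrpl13, Mrpl30, Mrps18c, Mrps21, Mrps27, Mrps31 and Mrps35. Of the 13 lower in SCNT, 9 were higher with Kdm4d (69.2% of that list, 33.3% of the 27): Mrpl4, Mrpl12, Mrpl28, Mrpl34, Mrpl40, Mrpl41, Mrpl50, Mrpl54 and Mrpl55. With group weights in the Kdm4d comparison these counts were 3 and 8. Over all genes the corresponding shares were 47.1% and 63.5%, and 74.0% and 57.4%. By sign alone, 12 of the 20 members higher in SCNT lay below 0 with Kdm4d (60%, against 83.6% over all genes). All 13 members lower in SCNT lay above 0 (100%, against 91.0% over all genes). Mrpl33 was higher in both. Mrps18a, the member with the largest SCNT difference, was not called, at 16.6 and 31.3 FPKM with Kdm4d against 14.2 and 33.5 with the mutant (0.06, adjusted p = 0.9331, limma). Summed 2-cell markers were 2592 and 3859 FPKM with Kdm4d and 290 and 714 with the mutant, and summed oocyte markers 3574 and 2456 against 6064 and 2974; their part in the member differences was not tested.

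**Figure D4:**
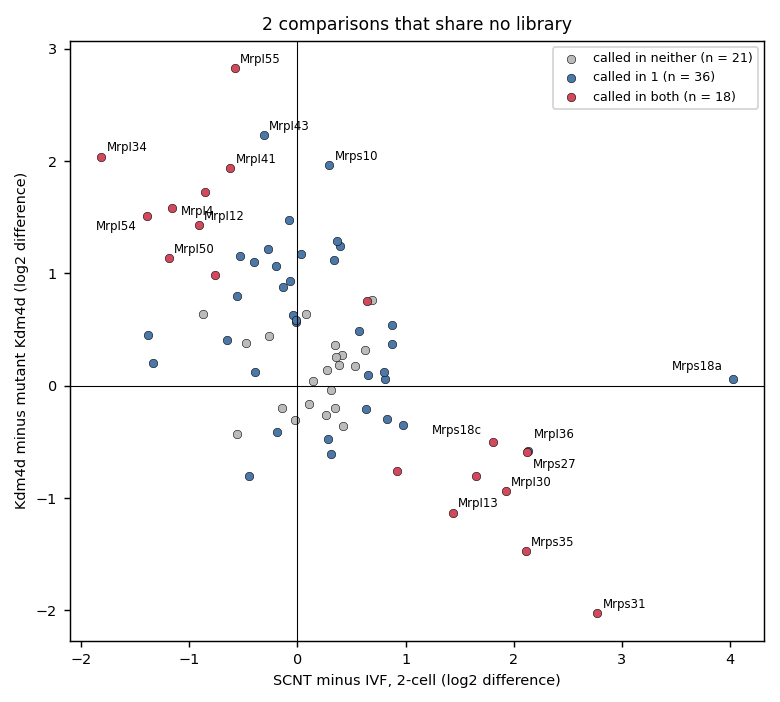
Log2 difference of each tested member between SCNT and IVF 2-cell embryos (x axis) and between Kdm4d and mutant Kdm4d embryos (y axis), coloured by how many of the 2 comparisons called it. Called members fill the upper left, led by Mrpl34 and Mrpl55, and the lower right, led by Mrps31; Mrps18a lies alone at 4.03 on the x axis and 0.06 on the y axis.

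Compared with IVF 2-cell embryos, Kdm4d embryos had 40 of 75 members higher (53.3%) and 1 lower, where 16.6% of all tested genes were higher and 3.7% lower. Medians were 0.64 for members and 0.18 for all genes. All genes shifted as well: median-of-ratios scaling moved the median of all genes to -0.01 and left 25 members higher and 2 lower (8.18% and 9.88% of all genes), and quantile normalization left 28 and 2 (6.96% and 7.66%). With group weights 33 were higher and 0 lower in limma (10.9% and 2.18% of all genes), with 1 lower at an unadjusted p under 0.05. Without IVF 2-cell replicate 2 the count was 25 higher, and in a fit to these 4 libraries alone 4. In limma with equal variance the large subunit had 31 of 48 higher and 0 lower (1 at an unadjusted p under 0.05). The small subunit had 9 of 26 higher and 1 lower in that fit. For cytosolic ribosomal proteins 8 of 75 were higher and 4 lower in the same comparison.

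Mrps18a had 16.6 and 31.3 FPKM with Kdm4d against 3.25 and 0.806 after IVF (3.10 ± 0.428 (SE), limma adjusted p = 0.0006873, with group weights 0.002317). Mrpl34, at 135 and 125 against 15.8 and 15.0 (2.99), and Mrpl43, at 34.5 and 38.5 against 6.15 and 6.91 (2.32), exceeded IVF levels by 8.41-fold and 5.60-fold. The single lower member, named after its values were seen, was Mrps34 at 0.312 and 0.446 against 1.26 and 1.70 FPKM (-0.84, limma adjusted p = 0.01659, with group weights 0.09342), a value made uncertain by shared sequence. Mrps31 and Mrps35, at 1.44 and 1.43 and at 1.55 and 1.64 FPKM, lay 1.90-fold and 2.41-fold above their IVF means without overlap and were not called (0.47 and 0.64, limma adjusted p = 0.1501 and 0.06307).

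**Figure D5:**
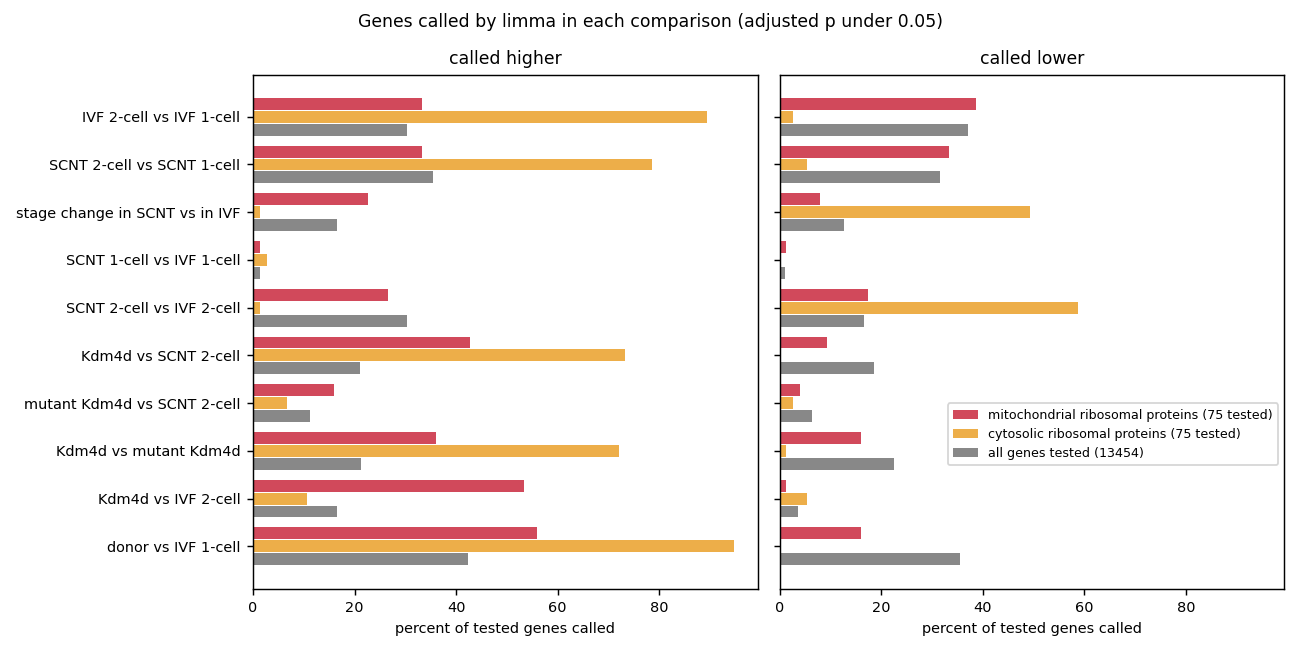
Percent of tested genes called higher (left) and lower (right) by limma in 10 comparisons, for the 75 tested members, 75 cytosolic ribosomal protein genes and all 13454 tested genes. Members lie near all genes in the stage steps and between SCNT and IVF 2-cell embryos. They lie above all genes among higher calls with Kdm4d, most against IVF embryos (53.3% and 16.6%), and in donor cells (56.0% and 42.4%). Cytosolic ribosomal proteins differ from both in the stage steps and among lower calls between SCNT and IVF 2-cell embryos (44 of 75). They also do so among higher calls with Kdm4d against plain SCNT (55 of 75) and the mutant (54 of 75).

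Other genes of mitochondrial translation were described from lists. Of all tested genes 30.4% rose and 37.2% fell between the IVF stages. For SCNT against IVF 2-cell embryos the shares were 30.3% higher and 16.6% lower. For Kdm4d against plain SCNT they were 21.0% and 18.5% (16.8% and 11.9% with group weights). Whether the lists differ from these shares was not tested. Of 7 mitoribosome proteins with other symbols, 3 rose and 3 fell between the IVF stages: Aurkaip1, a small-subunit protein, from 6.67 to 38.2 FPKM on average (2.36, limma adjusted p = 2.944e-06), and Dap3, the GTP-binding protein of the small subunit, from 25.9 to 3.57 (-2.55, limma adjusted p = 5.104e-08). Against plain SCNT embryos 3 of the 7 were higher with Kdm4d (2 with group weights) and 0 lower in limma, also 0 at an unadjusted p under 0.05. Of 25 assembly factors 9 rose and 10 fell between the IVF stages, with Trub2, a pseudouridine synthase, at 0.353 and then 15.4 FPKM on average and Mterfd2 at 19.9 and then 1.01. With Kdm4d 6 were higher and 3 lower than in plain SCNT (4 and 0 with group weights), led by Rpusd3 at 10.9 against 1.67 FPKM (2.10, limma adjusted p = 6.2e-05). Of 13 translation factors 2 rose and 7 fell after IVF, among them the elongation factor Gfm1 from 23.8 to 4.16 (-2.27); in SCNT 2-cell embryos 5 were higher than after IVF and 0 lower in limma, at an unadjusted p under 0.05 too, and with Kdm4d 2 were higher and 2 lower than in plain SCNT (1 and 1 with group weights).

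Transcription factors known to act on genes for mitochondrial proteins were also listed. Of 9 tested, 6 rose and 1 fell between the IVF stages, 0 were higher in limma (1 at an unadjusted p under 0.05, 2 with group weights) and 4 lower in SCNT than in IVF 2-cell embryos, and 6 were higher and 2 lower with Kdm4d than in plain SCNT (5 and 0 with group weights). Gabpa, the DNA-binding subunit of GABP, had 0.204 and 0.153 FPKM in IVF 1-cell, 94.0 and 86.0 in IVF 2-cell, 20.6 and 17.3 in SCNT 2-cell, 23.5 and 24.0 in mutant and 62.4 and 90.7 in Kdm4d embryos. Its partner Gabpb1 had 92.9 and 80.1 in IVF 2-cell, 22.5 and 19.0 in SCNT 2-cell and 72.4 and 94.8 in Kdm4d embryos. Both lay lower in SCNT than in IVF 2-cell embryos (-2.20 and -2.01, limma adjusted p = 5.438e-06 and 3.525e-06) and higher with Kdm4d than in plain SCNT (1.94 and 1.95). Calls were also counted by promoter letters. Of the 23 tested members with the ETS core 6 rose and 11 fell between the IVF stages, and of the 43 without it 14 rose and 17 fell. Between SCNT and IVF 2-cell embryos 8 were higher and 2 lower with the core, and 10 and 9 without it. Between Kdm4d and plain SCNT embryos 11 were higher and 2 lower with the core and 18 and 3 without it, and between Kdm4d and mutant embryos 8 and 3, and 16 and 6. These counts by promoter letters come from the equal-variance fit. Of all tested genes 30.4% rose and 37.2% fell between the IVF stages. In SCNT against IVF 2-cell embryos 30.3% were higher and 16.6% lower. With Kdm4d 21.0% were higher and 18.5% lower than in plain SCNT, and 21.4% and 22.5% than with the mutant. Whether members with and without the core differ was not tested, nor whether the listed factors differ from all genes.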

How the data were processed

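Libraries were made with the SMARTer Ultra Low Input and NEBNext Ultra kits and read single-end over 50 bases, per the labels' protocols. The authors deposited 1 table of FPKM per gene for all 14 libraries. Novoalign, Cufflinks 2.0.2 and build mm9 are listed per the submitters' processing notes. The labels give neither filters nor the strand of counting. The members and the lists were chosen with earlier results of these data known.

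Of its rows, 791 for short RNAs were not used and rows of 1 symbol were summed, giving 22497 symbols. Values were analysed as log2(FPKM + 1) with no further scaling, after a filter of at least 1 FPKM in at least 2 libraries. All 7 groups entered 1 limma fit (R 4.3.3, limma 3.58.1, variance trend), with Benjamini-Hochberg adjustment over 13454 genes and calls at 0.05. Both fits were tested on simulated data, in which the equal-variance fit made many false calls between Kdm4d and mutant embryos and none between SCNT and IVF 2-cell embryos. The simulation changed few genes, with 1 spread per group for all genes and noise drawn apart for each library. In the data 30.3% and 16.6% of genes were called between SCNT and IVF 2-cell embryos. It therefore cannot show how many of those calls are false. Depth is given only relative to the deepest library, since FPKM carry no counts.

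Named by rule were called members with the largest differences, up to 10 each way in the stage steps, SCNT against IVF 2-cell embryos and Kdm4d against its mutant, up to 3 otherwise, provided that 1 group averaged 5 FPKM or more and libraries did not overlap. Also named were the 3 highest and 3 lowest members, those with shared sequence and the Mrps18 genes. Alternatives were a pseudocount of 0.1, other filters, quantile and median-of-ratios scaling, a fit to the groups compared, a replicate block and leaving out each library. A fit with group weights and a crossed block were added after seeing the data. Replicate numbers are not said to mark a shared day or animal.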

Additional observations from a re-analysis of the deposited data

Results flagged for a closer look

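The stage change from 1-cell to 2-cell embryos differed between SCNT and IVF for the members below, by the limma interaction with a Benjamini-Hochberg adjusted p under 0.05 over all genes. Each value is the SCNT stage change minus the IVF stage change on the log2(FPKM + 1) scale.

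In the small subunit the change was more positive after SCNT for Mrps31 (3.69), Mrps35 (2.48), Mrps18c (2.18), Mrps27 (1.87) and Mrps21 (1.80). In the large subunit it was so for Mrps18a (3.81), Mrpl30 (1.85), Mrpl36 (1.66), Mrpl47 (1.63) and Mrpl18 (1.36).

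More negative after SCNT were Mrpl34 (-2.19), Mrpl4 (-1.68), Mrps30 (-1.52), Mrpl12 (-1.38), Mrpl50 (-0.98) and Mrpl40 (-0.81), all of the large subunit. Strain differed between the kinds of embryo in the same way and cannot be told apart from them.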

How the results depend on the processing

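Over 119 differences of named members and 1507 values under alternatives, 1387 kept their side of the threshold, 120 lost it and 0 changed sign; 81 of the 119 never lost it. Of 254 counts of members under alternatives, 202 stayed within 1.5 times of the reported count. The others follow as numbers of members without the share of all genes in the same setting. They show how far a count moved and do not set members apart from the background, and the cause was not tested. With median-of-ratios scaling there were 13 lower in the stage interaction, 0 higher and 4 lower between the 1-cell groups, 11 higher and 22 lower between SCNT and IVF 2-cell embryos, 5 lower for the mutant against SCNT, and 25 higher and 2 lower for Kdm4d against IVF. Quantile normalization gave 13 lower for Kdm4d against SCNT, 7 lower for the mutant against SCNT and 2 lower for Kdm4d against IVF. A pseudocount of 0.1 gave 2 higher and 3 lower between the 1-cell groups; the filter at 5 FPKM gave 3 lower there and 0 lower for Kdm4d against IVF. A fit to the groups compared only gave 19 lower in the interaction, 8 higher and 6 lower between the 1-cell groups, 18 higher for Kdm4d against SCNT, 0 in both directions for the mutant against SCNT (11 higher and 4 lower at an unadjusted p under 0.05) and for Kdm4d against the mutant, and 4 higher and 0 lower for Kdm4d against IVF. Group weights gave 18 lower in the interaction, 13 higher and 8 lower between the 1-cell groups, 4 higher and 1 lower for the mutant against SCNT, 11 higher and 3 lower for Kdm4d against the mutant, and 0 lower for Kdm4d against IVF.

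Leaving out 1 library gave 0 to 0 in both directions between the 1-cell groups and 7 to 11 lower between the 2-cell groups. For the mutant against SCNT it gave 4 to 15 higher and 1 to 12 lower, and for Kdm4d against IVF 25 to 43 higher and 0 to 1 lower. The lone sample left in a group is assumed to vary like the others. Replicates 1 and 2 share only a number: correlations of their deviations ran from -0.249 to 0.302. With the replicate number as a block, 0 members were higher between the 1-cell groups (7 at an unadjusted p under 0.05), and no other count of members moved by over 1.5 times. Crossing the numbers of the Kdm4d and mutant libraries gave 13 higher and 6 lower for the mutant against SCNT. Depth limits low members most, since FPKM carry no counting error.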

Other observations

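Genes that copy and read mitochondrial DNA were listed apart from the ribosome. Of all tested genes 30.4% rose and 37.2% fell between the IVF stages. In SCNT against IVF 2-cell embryos 30.3% of them were higher and 16.6% lower (36.2% and 19.7% with group weights). Of 10, 4 rose and 3 fell between the IVF stages, and 4 were higher and 1 lower in SCNT than in IVF 2-cell embryos (4 and 4 with group weights). Tfam, which packages mitochondrial DNA and starts its transcription, had 8.53 and 9.06 FPKM in IVF 1-cell and 1.07 and 1.07 in IVF 2-cell embryos (-2.24, limma adjusted p = 1.967e-07). In SCNT embryos Tfam had 10.7 and 12.3 FPKM at the 1-cell and 9.48 and 9.48 at the 2-cell stage. Tfam had 11.7 and 9.67 FPKM with the mutant and 2.21 and 2.99 with Kdm4d, lower than in plain SCNT (-1.55, limma adjusted p = 3.967e-05, with group weights 0.0002665) and than with the mutant (-1.70, limma adjusted p = 3.161e-05, with group weights 0.002365).

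Of 17 mitochondrial aminoacyl-tRNA synthetases, which load tRNAs with amino acids, 14 were tested. The shares of all genes just given apply to the counts here too. Between the IVF stages 5 rose and 2 fell, and 6 were higher and 1 lower in SCNT than in IVF 2-cell embryos. Mars2, the methionine enzyme, had 6.93 and 8.46 FPKM in IVF, 1.33 and 1.71 in SCNT and 4.38 and 8.47 in Kdm4d 2-cell embryos. Mars2 was the single one called lower in SCNT than in IVF (-1.78, limma adjusted p = 0.0006903). It does not stand for the list, since the 6 higher ones went the other way. Mars2 was higher with Kdm4d than in plain SCNT (4.22-fold, limma adjusted p = 0.002575, with group weights 0.004832). In that comparison 3 of the 14 were higher and 2 lower, with 21.0% and 18.5% of all genes.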
